A study of Mus musculus with 8 samples.

Results

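The regions described here are stretches of chromatin that were open at day 7 (D7) of cardiac differentiation in both conditions and were not in the peak list of day 5 (D5). They were selected on the deposited peak calls themselves. Overlapping peaks of each list were merged on chromosomes 1 to 19, and a merged region of the D7 GLI1 list was kept when it overlapped a D7 control region by at least 1 base and no D5 region. This gave 9850 of the 42192 regions of the GLI1 list, or 23.3% (Wilson 95% interval 22.9 to 23.8). They are called D7-only regions below. Of the other GLI1 regions, 15809 were in all 3 lists, 14330 were in the GLI1 list alone and 2203 were in the GLI1 and D5 lists.

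ATAC-seq, which uses the Tn5 transposase to cut and tag open DNA, was run on cardiac progenitors derived from mouse embryonic stem cells, from the line GLI1-FTA, with the strain given as A2Lox.cre. The D7 GLI1 overexpression group (3 libraries) received 500 ng/ml doxycycline for 48 hours before D7, the D7 control group (3 libraries) was untreated, and the D5 control group (2 libraries) was untreated and harvested earlier. Each group has 1 pooled peak list, so no value has a replicate check and no p-value is given; the list named only as control is taken to be the D7 control, which is an inference. Only GLI1 cells received the drug, so its own effect and that of GLI1 cannot be told apart, and the labels used here do not say whether the line is 1 clone.

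Open chromatin is where transcription factors, remodelling complexes and RNA polymerase can reach the DNA. Promoters of widely used genes, many of them rich in CpG dinucleotides, tend to be open in most cells, whereas enhancers far from promoters open and close as cells pass from one state to the next. GLI1 is a transcriptional activator at the end of the Hedgehog pathway, which acts in progenitors of the heart's second field. PTCH1, the receptor for Hedgehog ligands, is itself a well known target of GLI factors.

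The sequences below are of 5 promoters inside D7-only regions, shown because they carry the contrasts of the following paragraphs. Each is the 250 bases before an annotated start, read 5′ to 3′ in the direction of the gene from the RefSeq promoter table of GRCm38.p6 (mm10). Capitals mark matches on either strand to the motifs that were searched, whose letters are given with the motif shares.
Ak1: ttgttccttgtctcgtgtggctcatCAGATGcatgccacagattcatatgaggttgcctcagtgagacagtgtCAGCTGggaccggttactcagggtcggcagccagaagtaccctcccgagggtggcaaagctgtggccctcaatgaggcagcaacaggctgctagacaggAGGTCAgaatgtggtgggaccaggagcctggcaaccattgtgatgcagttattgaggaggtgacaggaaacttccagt
Arid1a: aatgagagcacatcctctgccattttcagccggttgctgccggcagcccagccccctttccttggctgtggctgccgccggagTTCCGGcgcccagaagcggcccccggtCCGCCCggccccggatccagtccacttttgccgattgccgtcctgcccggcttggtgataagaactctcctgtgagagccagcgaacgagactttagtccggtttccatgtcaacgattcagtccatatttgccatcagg
Ackr3: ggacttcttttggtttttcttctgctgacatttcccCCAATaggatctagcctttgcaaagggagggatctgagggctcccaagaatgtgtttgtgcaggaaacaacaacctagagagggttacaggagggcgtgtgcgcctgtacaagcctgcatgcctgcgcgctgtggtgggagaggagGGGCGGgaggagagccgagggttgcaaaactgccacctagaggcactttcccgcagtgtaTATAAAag
Tbxa2r: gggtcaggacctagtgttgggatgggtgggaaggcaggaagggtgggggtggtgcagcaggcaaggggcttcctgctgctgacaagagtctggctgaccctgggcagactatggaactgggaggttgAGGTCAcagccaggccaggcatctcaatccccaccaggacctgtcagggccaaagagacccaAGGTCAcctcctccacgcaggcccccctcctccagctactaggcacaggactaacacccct
Dnm3os: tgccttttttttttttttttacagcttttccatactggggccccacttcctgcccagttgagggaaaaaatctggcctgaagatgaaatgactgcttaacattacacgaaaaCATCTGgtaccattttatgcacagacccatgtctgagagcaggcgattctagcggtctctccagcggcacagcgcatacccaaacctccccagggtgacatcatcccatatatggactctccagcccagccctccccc

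Ak1 (chr2:32621508-32621757, + strand) encodes adenylate kinase 1 and Arid1a (chr4:133756770-133757019, − strand) a subunit of the BAF chromatin remodelling complex. They were the protein-coding genes with the highest lower fold of the D7 lists among starts that mark the outer end of a gene in the annotation, are on chromosomes 1 to 17 or 19, have no other gene in the 250 bases and lie in a region whose control region reaches no D5 region. By the same filters, Ackr3 (chr1:90203730-90203979, + strand), an atypical receptor that takes up the chemokine CXCL12, had the highest ratio of GLI1 to control fold with both folds at 5 or more, and Tbxa2r (chr10:81328018-81328267, + strand), the thromboxane A2 receptor, the lowest. Dnm3os (chr1:162217373-162217622, + strand) is the non-coding transcript that carries miR-199a-2 and was chosen for that reason.

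For these promoters the fold is that of the highest peak of the whole region, over the background as the authors' peak caller gave it. That peak can lie outside the printed bases, as at Ak1, where the GLI1 summit was at chr2:32621319. The fold of the Ak1 region was 63.9 with GLI1 and 47.7 in control. Arid1a had 42.1 with GLI1 and 34.6 in control. At Ackr3 the folds were 14.6 with GLI1 and 6.66 in control, 2.19 times higher with GLI1. At Tbxa2r they were 9.48 with GLI1 and 26.6 in control, a ratio of 0.356. At Dnm3os they were 20.01 with GLI1 and 33.3 in control, a ratio of 0.601. The CpG content also differed: the ratio of observed to expected CpG over the whole 300-base window was 0.787 at Arid1a, 0.374 at Ackr3, 0.298 at Dnm3os, 0.262 at Ak1 and 0.0348 at Tbxa2r.

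The D7-only regions also held both genomic copies of miR-199a, a microRNA with muscle and mesenchyme among its known sites of expression, which is why its mature strands are shown with the seed, bases 2 to 8, in capitals (RefSeq). The copies give the same mature strands.
mmu-miR-199a-5p: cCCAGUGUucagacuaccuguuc
mmu-miR-199a-3p: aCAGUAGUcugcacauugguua

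The Mir199a-2 hairpin lay in the region chr1:162216474-162218211, the same one as the Dnm3os promoter. The Mir199a-1 hairpin lay in chr9:21496347-21497394, where the folds were 12.3 with GLI1 and 31.3 in control. The regions of both copies thus had lower folds with GLI1, by ratios of 0.601 and 0.392. Of all D7-only regions, 36.1% were at least 1.5 times lower. The GLI1 summits of the 2 regions were 957 and 363 bases from the hairpin centres. The nearest D5 regions were 8967 and 12412 bases away. Of 919 hairpins of the table on these chromosomes, 14 overlapped a D7-only region, against 74 in regions of all 3 lists and 5 in regions of the GLI1 list alone. Among the others was Mir9-3, whose mature strand is a neural microRNA, with 2.46 with GLI1 and 10.4 in control; there the control region also reached a D5 region.

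D7-only regions were mostly small and weak. Their median width was 388 bases, against 1071 bases in all 3 lists and 250 bases in the GLI1 list alone. The median fold was 4.91 with GLI1 and 6.30 in control; regions of all 3 lists had medians of 19.7 with GLI1 and 17.6 in control. A single peak made up 77.1% of the D7-only regions. Both folds were at least 5 in 3668 of them (37.2%), at least 10 in 894, at least 20 in 153 and at least 30 in 40. They covered 4.92 Mb, and 831 of them (8.44%) were 1 kb or wider, compared with 54.6% of the regions in all 3 lists.

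The share of D7-shared regions that were absent at D5 fell with the fold, as the plot of that share shows. Of all 25659 regions shared by both D7 lists, 38.4% (37.8 to 39.0) were absent at D5. The share was 81.3% at GLI1 folds under 4, 59.7% at 5 to 7, 29.6% at 10 to 15 and 2.01% at 30 and over. Within 1 kb of a gene end it was 76.6% at folds under 4 and 0.208% at 30 and over. Farther from gene ends it was 82.3% and 9.15% for the same folds. The lists themselves had median region folds of 5.44 with GLI1, 5.94 in D7 control and 5.81 at D5, and highest folds of 155, 129 and 37.2 in that order. They covered 28.5, 26.6 and 12.7 Mb. The D7 lists have the folds of a constant background and the D5 list those of a local one, and the part that depth and calling had in absence at D5 was not tested.

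**Figure D1:**
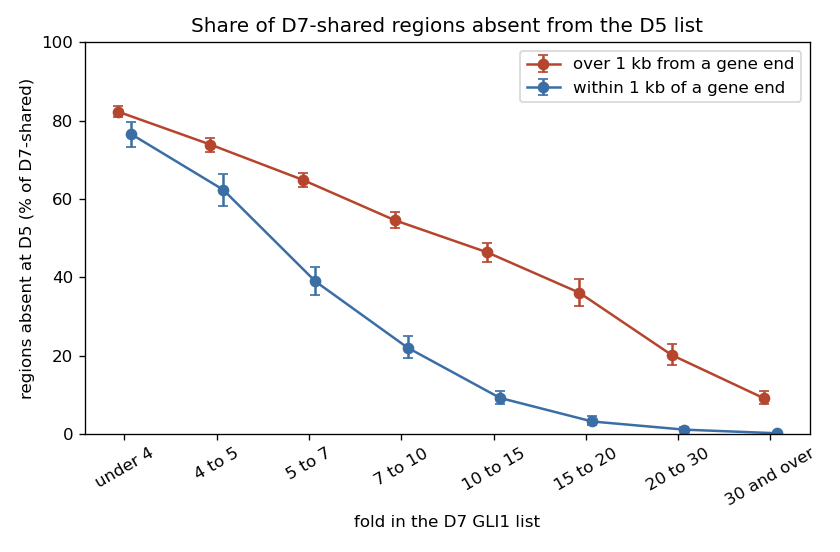
Percent of the regions shared by both D7 lists that overlap no D5 region, by fold in the GLI1 list; bars are Wilson 95% intervals and cover counting error only. The share falls with fold in both curves, and at 30 and over it is 9.15% over 1 kb from a gene end and 0.208% within 1 kb.

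The distance to the nearest D5 region had a median of 8575 bases. A D5 region lay within 500 bases of 1025 D7-only regions (10.4%) and within 100 bases of 93. At the edge of the rule, 36 regions overlapped their control region by 10 bases or fewer. The 3 with the smallest control overlap, 1 base each, were near Ado, in Rgs9 and in Mfsd8, with GLI1 folds of 2.81, 2.98 and 3.34. The 3 regions left out by the smallest D5 overlaps, of 3, 3 and 4 bases, were in Ccdc3, Pcdh7 and Foxp4, with GLI1 folds of 2.81, 5.09 and 2.98. For 762 D7-only regions (7.74%) the overlapping control region was wider and itself overlapped a D5 region. These were narrow, with a median of 268 bases, and their median fold was 3.86 with GLI1 and 25.6 in control.

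D7-only regions lay away from gene ends. Their summit was within 1 kb of the end of a protein-coding gene, at either its start or its far end, in 14.8% (14.1 to 15.5), against 61.5% (60.8 to 62.3) of the regions in all 3 lists and 8.83% of those in the GLI1 list alone. The difference from all 3 lists was −46.7 percentage points (95% interval −47.7 to −45.7). At like folds its size varied. At GLI1 folds under 4, 17.2% of D7-only regions and 22.8% of regions in all 3 lists lay within 1 kb, a difference of −5.59 points, and at 4 to 5 the difference was −8.42 points. At 10 to 15, 14.1% of D7-only regions and 58.3% of regions in all 3 lists did so, and at 20 to 30 the shares were 10.8% and 72.9%. Summits inside a gene but over 1 kb from its ends made up 44.7% of D7-only regions and 22.6% of regions in all 3 lists. Another 30.8% of D7-only summits were outside genes, between 1 and 100 kb away, and 9.72% were farther still, against 12.9% and 2.97% in all 3 lists. Regions of the GLI1 list alone had 47.7%, 29.8% and 13.7% in these places, in the same order. No chromosome stood far apart: the D7-only share of D7-shared regions was between 33.7% on chromosome 7 and 41.2% on chromosome 11.

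The D7-only region with the highest lower fold lay inside Lmx1b, a LIM-homeodomain gene of dorsal limb and roof plate, at chr2:33591973-33593833 (mm10). Its fold was 53.9 with GLI1 and 58.9 in control, and no D5 region came closer than 1135 bases. Next was the region that holds the Ak1 promoter. The third, at chr7:70845688-70847088, was 261 kb from the nearest protein-coding gene and had 47.6 with GLI1 and 69.3 in control. The region at one end of Emilin1, which encodes an elastin-associated matrix protein (chr5:30912466-30914615), had 44.1 with GLI1 and 43.6 in control. The region at one end of Maml3, a Notch coactivator (chr3:52104475-52105830), had 49.1 with GLI1 and 41.8 in control. In Col2a1, the type II collagen of cartilage and notochord (chr15:97989470-97991283), the folds were 41.4 with GLI1 and 49.9 in control. Regions in Arrb1, which encodes a β-arrestin, and near Ahdc1 and Mn1 completed this group with ratios of 0.811, 0.781 and 0.922. The exception was a region 13.6 kb from Ampd3, an AMP deaminase gene (chr7:110753813-110754955), with 39.8 with GLI1 and 88.9 in control. Of the strongest 10, 9 thus had folds within 1.5 times of each other.

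The widest D7-only region, 3770 bases in Chd3, the gene of a NuRD remodelling subunit (chr11:69365842-69369611), merged 7 peaks and had 36.9 with GLI1 and 25.9 in control. It was followed by regions near Tmem132e (3367 bases), near Twist2, a bHLH factor gene of mesenchyme (3014 bases, with 42.0 with GLI1 and 29.9 in control), in the protocadherin gene Pcdh7 (2894 bases) and in the kinase gene Akt1 (2828 bases).

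Set side by side, the folds of D7-only regions were more often lower than higher with GLI1. A ratio of GLI1 to control fold of at least 1.5 was found in 1286 regions (13.1%), while over all D7-shared regions it was 12.8%. A ratio of at most 1 over 1.5 was found in 3553 regions (36.1%), while over all D7-shared regions it was 17.3%. The median ratio was 0.845 in D7-only regions and 1.10 in all 3 lists, where 12.7% were higher and 5.60% lower. This comparison is uneven, because the members are cut from the GLI1 list and a control region wider than a member brings its highest peak from outside. Peaks of both D7 lists were therefore also merged into joint regions, an alternative added after the values were seen. Of 8618 joint D7-only regions, 14.8% were higher with GLI1 (13.5% over all joint D7-shared regions) and 29.4% were lower (13.8% over all), with a median ratio of 0.912. Joint regions of all 3 lists had a median of 1.11, with 12.8% higher and 5.28% lower.

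**Figure D2:**
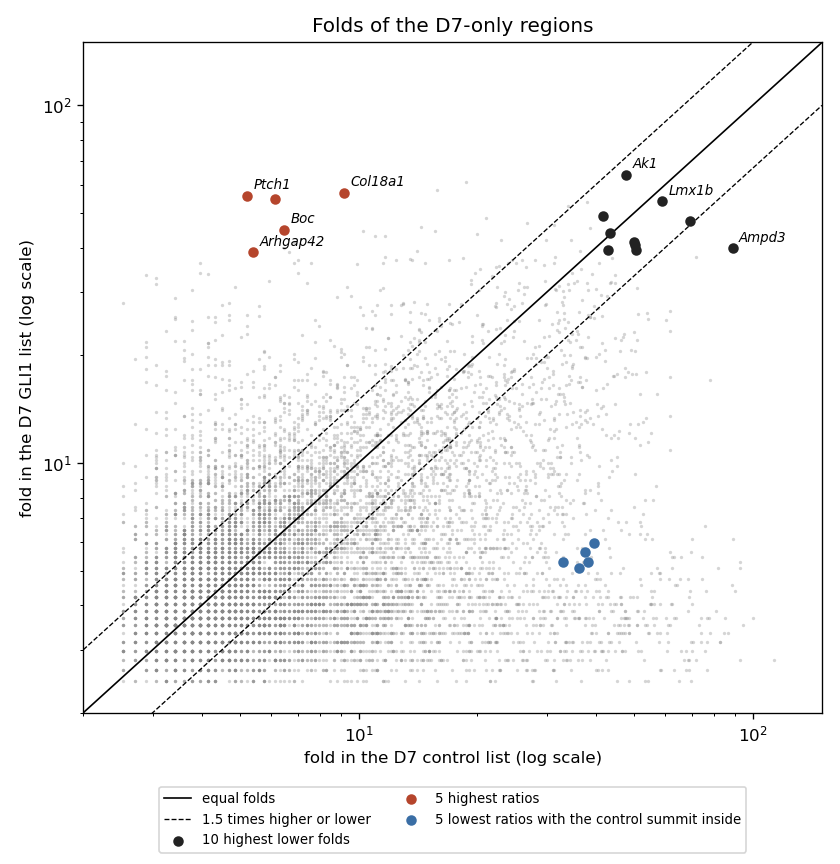
Fold in the D7 GLI1 list against fold in the D7 control list for each of the 9850 D7-only regions, both on log scales, with lines at equal folds and at 1.5 times. The 5 regions with the highest ratio have control folds between 5.22 and 9.18. The 5 blue points, limited also to control regions that reach no D5 region, have GLI1 folds between 5.09 and 5.97.

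By number, most joint D7-only regions that were lower with GLI1 had a geometric mean of both folds of 5 to 7 (676 regions) or 7 to 10 (617), and the share that was lower was higher in the stronger bins up to 30. The joint D7-only regions at 10 to 15 had a median ratio of 0.701 with 46.6% lower, against 1.14 and 6.72% for joint regions of all 3 lists. At 20 to 30 the values were 0.652 and 52.1% against 1.11 and 1.84%. At 30 and over, with 80 D7-only regions, they were 0.847 and 27.5% against 1.08 and 0.630%. At folds under 4 the medians were 0.975 in D7-only regions and 1.02 in all 3 lists. Over 1 kb from gene ends, 31.6% of joint D7-only regions and 11.4% of those in all 3 lists were lower with GLI1. Within 1 kb of gene ends the shares were 13.6% and 1.43%, with median ratios of 1.04 and 1.11. In bulk chromatin, fewer cells with an open site and a less open site in each cell cannot be told apart.

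**Figure D3:**
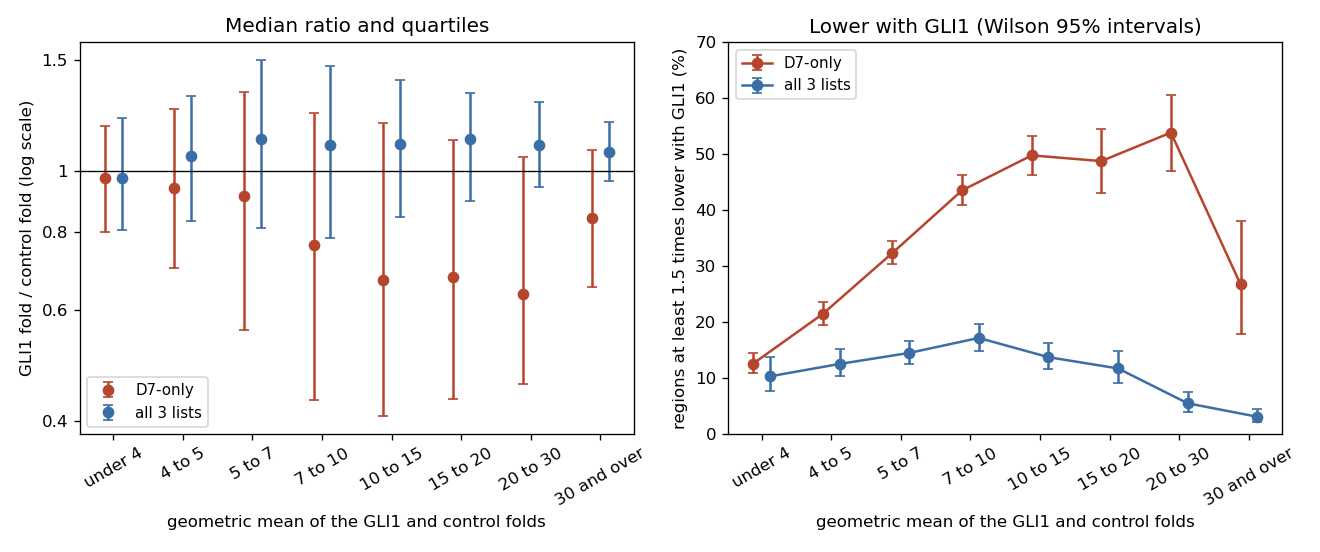
Joint regions over 1 kb from a gene end, by the geometric mean of GLI1 and control folds. Left, median ratio of GLI1 to control fold with quartiles (log scale); right, percent at least 1.5 times lower with GLI1, with Wilson 95% intervals for counting error only. At 10 to 15, 49.8% of D7-only regions and 13.7% of regions in all 3 lists are lower.

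Among D7-only regions with both folds at 5 or more, the 5 highest ratios included the Hedgehog genes Ptch1 and Boc. At any fold, Ptch1 had 4 D7-only regions, 1 higher and 2 lower with GLI1, and Boc had 3, 1 higher and 2 lower. Over all D7-only regions, 13.1% were higher and 36.1% lower. The region at the end of Ptch1 (chr13:63572096-63574064) had 55.8 with GLI1 and 5.22 in control, 10.7 times higher. Limch1, an actomyosin regulator gene, held a region (chr5:66799306-66801339) with 54.6 with GLI1 and 6.12 in control. A region 51.9 kb from Arhgap42, which encodes a GTPase-activating protein (chr9:9290272-9291503), had 38.8 with GLI1 and 5.40 in control. Boc, which encodes a Hedgehog co-receptor, held a region (chr16:44537981-44539029) with 44.9 with GLI1 and 6.48 in control. A region 31.5 kb from Col18a1, a basement membrane collagen gene (chr10:77197291-77198642), had 57.0 with GLI1 and 9.18 in control.

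The 5 lowest ratios among regions with both folds at 5 or more were in or near Ski, Stag1, Ppp1r10, Ampd3 and Crocc, with GLI1 folds between 5.09 and 6.14 and control folds between 74.3 and 92.9. In all 5 the control summit lay outside the GLI1 region, so these are flanks of a large control region. Another set, chosen after the values were seen, was limited to regions with the control summit inside and a control region that reaches no D5 region. Among its 5 lowest ratios was Bahcc1 (chr11:120281201-120281606) with 5.27 with GLI1 and 38.2 in control. Gnb3 (chr6:124835457-124836028) was also among them, with 5.27 with GLI1 and 32.9 in control. The remaining 3 were nearest to Zfp703, Fignl2 and Fam43a, with ratios of 0.141, 0.149 and 0.151.

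D7-only regions were spread over 5082 protein-coding genes, each region given to the gene nearest its summit within 100 kb; 3156 genes had exactly 1, 227 had at least 5 and 17 at least 10. Gse1, whose product belongs to a histone deacetylase complex, led with 34 of its 45 D7-shared regions. Its strongest, chr8:120264327-120266277, had 37.6 with GLI1 and 31.5 in control. After joining there were 28, of which 4 were higher and 12 lower with GLI1, where 29.4% were lower over all joint D7-only regions. The densest 100-kb stretch of these chromosomes, with 16 D7-only among 20 D7-shared regions, was also at Gse1.

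Mecom, a zinc-finger factor gene, had 15 of 18, and 1700001O22Rik had 14 of 19. Septin9, a cytoskeletal GTPase gene, had 14 of 17, and its joint regions were higher with GLI1 in 1 of 11 and lower in 7. Tns1, which encodes the focal adhesion protein tensin, had 14 of 16, of which 1 was higher and 5 lower with GLI1. The strongest at Tns1 had 15.6 with GLI1 and 11.2 in control. Auts2 followed with 12 of 17. When summits went to the nearest gene end instead, Gse1 had 12, Mecom 6, Tns1 3 and Auts2 2, while Septin9 and 1700001O22Rik again had 14 each.

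Bahcc1, the gene of a chromatin reader, had 11 of 15, and all 11 were lower with GLI1. As joint regions these were 6, all lower, with a median ratio of 0.637. Fli1, an ETS factor gene of endothelium and blood, also had 11 of 13, of which 0 were higher and 7 lower, beside 36.1% lower over all D7-only regions; as joint regions 4 of 8 were lower. The region at one end of Fli1, chr9:32542871-32543703, had 22.1 with GLI1 and 34.0 in control. Col13a1, Maml3, Rgs3, Tenm4 and Zmiz1 also had 11 each, and Foxp1 had 10. The forkhead gene Foxp1 held one with 39.1 with GLI1 and 14.0 in control (chr6:99101139-99102191). Of the 10 at Foxp1, 2 were higher and 5 lower with GLI1, with a median ratio of 0.665.

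Among genes named whatever their values, the cardiac T-box gene Tbx5 had 1, which was its only D7-shared region (chr5:119741179-119741402, 4.74 with GLI1 and 5.22 in control). The cardiac genes Gata4 and Isl1 had 0 of 2 each, and Foxf1 had 0 of 1. The D5 list already held 5 regions near Tbx5, 5 near Gata4, 6 near Isl1 and 1 near Foxf1. Nkx2-5 had no D7-shared region, although the D5 list held 3 near it, and Tnnt2, the cardiac troponin T gene, had none in the GLI1 or D5 list. In the Hedgehog pathway Gli1 had 0 of 2 and its antagonist gene Hhip 0 of 1. Ptch1 had 4 of 7: besides the strong region above, these had GLI1 folds between 2.63 and 3.69, and 1 of the 4 was a flank of a control region with a fold of 58.3.

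Across 17 gene lists, D7-only regions made up a larger part of the D7-shared regions than the 36.7% over all genes (8893 of 24233) in 15 lists. The exceptions were primitive streak and early mesoderm (7 of 22, 31.8%) and housekeeping genes (2 of 14, 14.3%, interval 4.01 to 39.9). The interval of 12 lists lay above the share over all genes; the lists share some genes. The lists were drawn up with results of these data known, and most are genes of development, which differ from all genes in where their regions lie. How far position sets these shares was not tested.

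**Figure D4:**
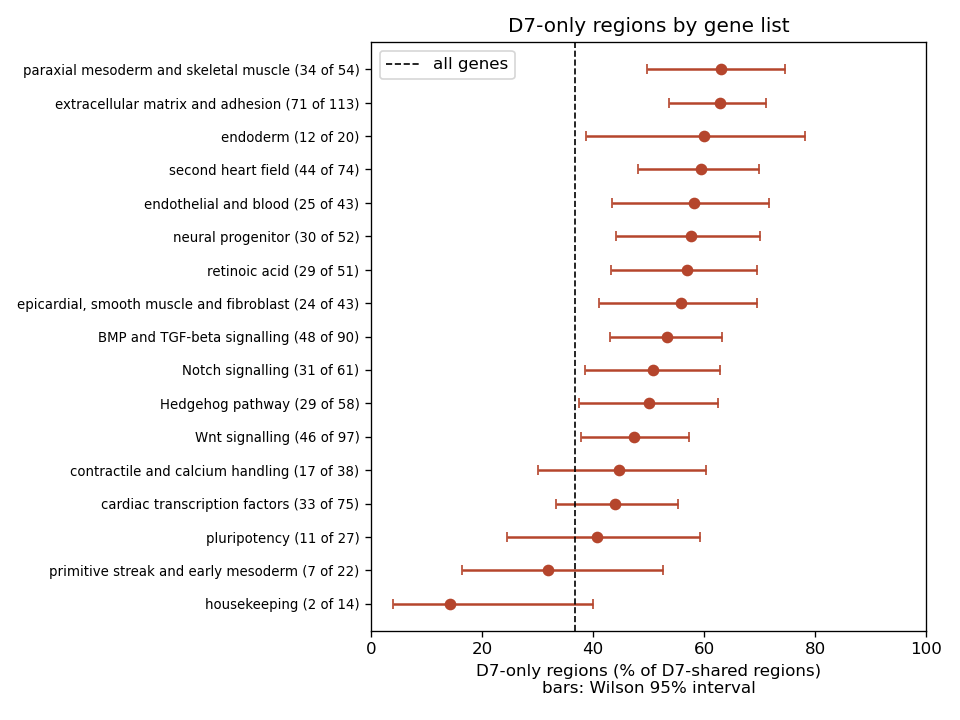
D7-only regions as a percent of the D7-shared regions assigned to the genes of each list, with Wilson 95% intervals for counting error only; the dashed line is the share over all genes, 36.7%. Paraxial mesoderm and extracellular matrix genes are at the top, at 63.0% and 62.8%, and housekeeping genes at the bottom, at 14.3%.

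Extracellular matrix and adhesion genes had 71 of 113 (62.8%, 53.6 to 71.2), in 21 of 28 genes. Besides Tns1 and Col13a1, Col18a1 had 6 of 8 and the N-cadherin gene Cdh2 4 of 5, while the hyaluronan synthase gene Has2 and the integrin gene Itgb1 had 0 of 2 each. Paraxial mesoderm and skeletal muscle genes had 34 of 54 (63.0%), among them Pax7 with 6 of 7, Foxc1 and Uncx with 5 of 7 each and Meox1 with 4 of 6. In the second heart field list, 44 of 74 were D7-only (59.5%, 48.1 to 69.9). There the BMP ligand gene Bmp7 had 8 of 9 and the nuclear receptor gene Nr2f2 7 of 11, while Bmp4 and Isl1 had 0 of 2.

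Cardiac transcription factor genes had 33 of 75 (44.0%, 33.3 to 55.3) and contractile and calcium handling genes 17 of 38 (44.7%). In these Meis2, a TALE homeobox gene, had 9 of 14, Prdm16 9 of 11 and Meis1 4 of 6, and the potassium channel gene Kcnh2 had 6 of 10. Hand2 had 0 of 3, and the sarcomere genes Actc1 and Actn2 had 0 of 1 each. The strongest at Meis2, chr2:116060267-116062051, had 24.4 with GLI1 and 20.7 in control.

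Markers of other cell types were counted the same way. Endothelial and blood genes had 25 of 43 (58.1%), neural progenitor genes 30 of 52 (57.7%), endoderm genes 12 of 20, epicardial, smooth muscle and fibroblast genes 24 of 43 (55.8%) and pluripotency genes 11 of 27 (40.7%, 24.5 to 59.3), beside 36.7% over all genes, which the pluripotency interval holds. Examples are the neural and pluripotency gene Sox2 with 6 of 8, the mesenchyme gene Prrx1 with 5 of 6 and the receptor gene Pdgfrb with 5 of 6. The endoderm genes Foxa2 and Sox17 had 0 of 2 each, as did the blood gene Tal1 and the pluripotency gene Nanog.

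For direction with GLI1, the lists were counted as joint regions, and differences between lists were not tested. Over all genes, 14.9% were higher and 27.9% lower. Second heart field genes had 12 of 36 higher and 4 lower, with a median ratio of 1.250, and cardiac transcription factor genes 11 of 31 higher and 4 lower, with a median of 1.17. Contractile and calcium handling genes had 6 of 17 higher and 4 lower. At Bmp7, 3 of 8 were higher and 0 lower; its region chr2:172887669-172888849 had 17.7 with GLI1 and 7.38 in control. Before joining, the second heart field counts were 12 higher and 11 lower of 44.

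Endothelial and blood genes had 2 of 22 joint D7-only regions higher and 10 lower, with a median ratio of 0.675. Eng, an endothelial TGF-β co-receptor gene, held one (chr2:32661561-32662128) with 6.49 with GLI1 and 19.4 in control. Flt1, a VEGF receptor gene, held one (chr5:147708362-147708904) with 8.25 with GLI1 and 22.5 in control. Wnt signalling genes had 3 of 40 higher and 15 lower, with a median of 0.884. Among them the receptor genes Fzd7 and Fzd2 had 4 of 5 and 3 of 4 lower.

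Hedgehog pathway genes had 29 of 58 D7-only, beside 36.7% over all genes. As joint regions 23 of 55 were D7-only (41.8%, 29.7 to 54.97), and this interval held the joint share over all genes, 33.6%. Of these 23 joint regions, 5 were higher and 10 lower. Hhat, which encodes the acyltransferase of Hedgehog ligands, had 4 of 4 lower. Gas1, a co-receptor gene, held one with 36.2 with GLI1 and 3.96 in control (chr13:60172787-60174482). Of the transcription factor genes, Gli2 had 8 of 13 D7-only, 3 of them beside a control region that reached D5, and Gli3 had 0 of 3; the difference was not tested. In BMP and TGF-β signalling (48 of 90, 53.3%), Smad3 had 9. As joint regions Smad3 also had 9, of which 0 were higher and 6 lower, beside 14.8% and 29.4% over all joint D7-only regions. Notch genes had 31 of 61 (50.8%), with Notch1 at 6 of 8 and the target gene Hes1 at 5 of 8. Retinoic acid genes had 29 of 51 (56.9%), with the receptor genes Rxra and Rara at 8 of 10 and 6 of 9.

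Promoter windows in the D7-only regions were poorer in CpG than those in regions of all 3 lists. Of 31396 RefSeq promoter windows on these chromosomes, each 250 bases before to 50 after a start, 336 lay wholly inside a D7-only region, 10445 inside a region of all 3 lists and 46 inside a region of the GLI1 list alone. A region narrower than the window could hold none, and D7-only regions were narrower, with a lower quartile of 260 bases against 657 bases in all 3 lists. The 336 windows belonged to 305 genes, 219 of them protein-coding and 86 lncRNA genes, in 293 regions, so windows of a gene can overlap. Among them were alternative starts, such as one of Shc1, an adaptor gene, with 52.3 with GLI1 and 34.0 in control, and one of Tbx1, a second heart field T-box gene, with 17.9 with GLI1 and 11.5 in control. The region holding one start of Rgmb, a BMP co-receptor gene, had 36.9 with GLI1 and 7.02 in control. These folds are those of whole regions.

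The median ratio of observed to expected CpG was 0.569 in D7-only windows (quartiles 0.320 and 0.788), 0.823 in all 3 lists and 0.389 over every window. It was at least 0.6 in 46.4% (41.2 to 51.8) of D7-only windows and 84.7% (84.0 to 85.4) of windows in all 3 lists. At GLI1 folds of 10 to 20 these shares were 51.4% and 74.1%, and at 20 and over, with 26 and 8021 windows, 26.9% and 88.5%. The GC content had medians of 59.2%, 64.3% and 53.0% in D7-only windows, all 3 lists and every window. In the 46 windows of the GLI1 list alone the median CpG ratio was lower still, 0.448, with 19.6% (10.7 to 33.2) at 0.6 or more.

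**Figure D5:**
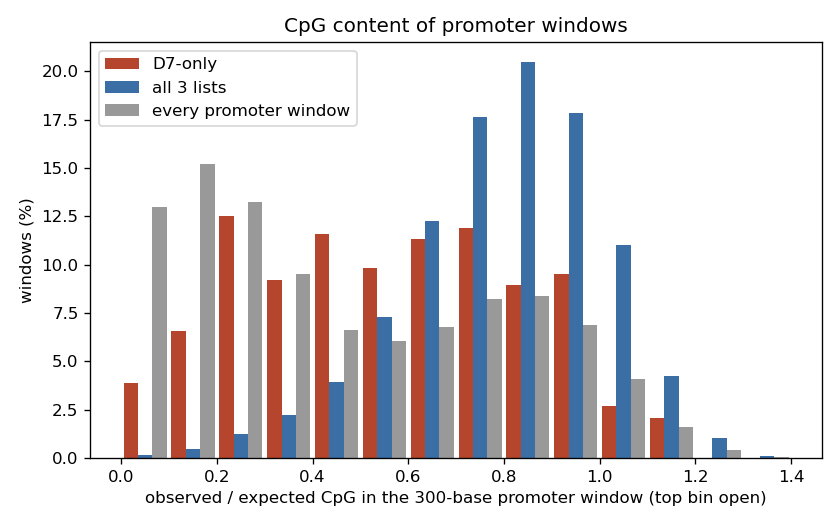
Ratio of observed to expected CpG in 300-base promoter windows inside D7-only regions (336), inside regions of all 3 lists (10445) and over every window (31396), as percent of each set. D7-only windows spread over low and high ratios, with a median of 0.569, while those of all 3 lists centre on 0.823.

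Motifs were searched in these windows as exact letters on both strands. The GC box GGGCGG, bound by SP and KLF factors, was in 53.6% (48.2 to 58.8) of D7-only windows, 74.1% of those in all 3 lists and 36.0% of every window. The ETS core CCGGAA was in 14.9% (11.5 to 19.1), 30.2% and 15.1%, and the NRF1 letters CATGCGC in 2.68%, 8.02% and 3.90%. The CRE TGACGTCA was in 2, 390 and 574 windows (0.595%, 3.73% and 1.83%), and the CCAAT box CCAAT in 31.8%, 38.6% and 37.3%. These letters of widely used promoters were thus less common in D7-only windows than in those of all 3 lists.

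Other letters ran the opposite way. The nuclear receptor half-site AGGTCA was in 19.3% (15.5 to 23.9) of D7-only windows, 9.82% of those in all 3 lists and 16.3% of every window. The forkhead letters TGTTTAC were in 6.25% (4.12 to 9.37), 2.07% and 3.71%, and the TATA letters TATAAA in 10.1% (7.33 to 13.8), 4.65% and 13.6%. TATAAA was counted at any place in the window, so a match need not be a TATA box. The E-box CAGCTG was in 21.4%, 14.3% and 16.3%, the TEAD letters GGAATG in 15.5%, 10.2% and 14.6%, and the GATA letters AGATAA in 6.85%, 3.81% and 11.2%. The E-box CATCTG was in 14.3%, 9.12% and 17.2%. The AP-1 letters TGANTCA (4.46%, 3.30% and 7.84%), the T-box letters GGTGTGA (3.27%, 2.78% and 3.997%) and the NKX2 letters CAAGTG (10.4%, 9.02% and 13.5%) had D7-only intervals that held the share of all 3 lists. The GLI site letters GACCACCCA were rare: 0 D7-only windows (upper Wilson bound 1.13%), 21 of those in all 3 lists (0.201%) and 80 of every window (0.255%). The D7-only interval held both other shares.

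Base composition moves with these shares. Among windows with a CpG ratio under 0.6, AGGTCA was in 26.1% (20.2 to 33.0) of 180 D7-only windows, 14.4% of 1599 in all 3 lists and 20.1% of every such window. TGTTTAC was in 8.89% (5.55 to 14.0), 2.001% and 4.38%. At a ratio of 0.6 and over, AGGTCA was in 11.5%, 8.998% and 9.56% and TGTTTAC in 3.21%, 2.08% and 2.54%. Each of these D7-only intervals held both other shares. There the shares of D7-only windows and all 3 lists were 12.8% and 13.0% for CAGCTG and 5.77% and 9.43% for GGAATG. For CATCTG they were 5.13% and 8.03%. Under 0.6 those letters were in 28.9% and 21.4%, 23.9% and 14.6%, and 22.2% and 15.2%. The GC box was in 74.4% and 77.3% at 0.6 and over, and in 35.6% and 56.1% under 0.6. AGATAA under 0.6 was in 8.89% (5.55 to 14.0) and 6.75%. CCGGAA stayed less common in D7-only windows, with 21.2% and 32.2% at 0.6 and over. In the printed sequences, AGGTCA stands at 123 and 61 bases before the start of Tbxa2r and at 78 bases before that of Ak1, and CATCTG at 138 bases before that of Dnm3os. A match is a description of letters, and binding at these windows was not tested.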

How the data were processed

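ATAC-seq peak lists of 3 groups (8 libraries in all) were used, 1 pooled list per group. Tools named in the submitters' processing notes, without roles, are MACS2 2.1.1, Picard, SAMtools 1.5 and Bowtie2 2.3.2; the build is mm10. The authors' deposited fold of each peak is a ratio over background. The authors' deposited −log10 q served for filters, and the deposited summit offset, in bases, placed each region. Library read totals were not used here, so the depth is unknown.

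Overlapping peaks were merged on chromosomes 1 to 19, with overlap of at least 1 base; a region's fold is that of its highest peak. Merging and overlaps were tested on simulated data against bedtools 2.31.1. Python 3.11.15 and pandas 2.3.3 were used. Folds were compared with a bound of 1.5 times. Summits were assigned to the nearest protein-coding gene within 100 kb (RefSeq GRCm38.p6); that table has no strand, so either gene end was counted. Wilson and Newcombe 95% intervals cover counting error only. No test between groups was possible.

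The members and gene lists were chosen with earlier results of these data known. Named were the 10 regions with the highest lower fold, the 5 highest and 5 lowest ratios at folds of at least 5, the 5 widest, 3 on each side of the rule, the 15 genes with the most regions, 8 fixed genes, with Tnnt2 added, and the leading genes of each list; regions named beside these were chosen after their values were seen. Some genes under this rule are not reported here. Sequences of distal regions were not used here. Alternatives were stricter q, other overlap and distance limits, lists of equal length, another bound, joint regions and narrower motif windows.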

Additional observations from a re-analysis of the deposited data

How the results depend on the processing

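No paired analysis was possible because a single pooled list stands for each group, which also kept libraries from being left out. The count of D7-only regions, 9850, was between 8519 and 11046 under 7 alternatives. The percent higher with GLI1, 13.1%, was 12.6% with mean folds, 5.42% at a bound of 2 times, 12.2% with the −log10 q held to 5 or more and, in alternatives chosen after seeing the data, 14.1% without control regions that reach D5, 14.6% with control summits inside and 14.8% as joint regions. The percent lower, 36.1%, was 33.6%, 23.9%, 33.9%, 31.5%, 29.3% and 29.4% in the same order. The percent within 1 kb of a gene end, 14.8%, was 18.9% with that q minimum in every list and 13.1% at folds of at least 5. Gse1, the gene with the most D7-only regions, had 34 within 25 kb also, and 12 when regions went to the nearest gene end. The number of lists above all genes, 15, was 14 within 25 kb and 16 at the stricter q. The GC box was in 53.6% of promoter windows, in 26.5% of central 100-base windows, which hold fewer letters, and in 54.5% at folds of at least 5. The other causes were not tested. Of the single genes, lists and motifs, 66 values stayed within their interval or direction and 28 moved. The depth of the lists is unknown, which limits what absence at D5 shows.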
